A study of Mus musculus with 200 samples.

Results

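Proteasome genes were taken as every row of the expression tables whose symbol starts with Psma to Psmg followed by a number. The rule found 49 of 22033 genes: 7 of the alpha ring, 7 of the constitutive beta ring, 3 immune catalytic subunits, 2 tissue-restricted subunits, 6 base ATPases, 3 other base subunits, 8 lid subunits, 3 base chaperones, 4 activators, 1 inhibitor, 4 core chaperones and Psmc3ip. Psmc3ip shares only the name, since it encodes a partner of the meiotic recombinases and is no subunit of the proteasome.

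RNA came from whole mouse embryos at embryonic day 11.5. The F1 embryos were hybrids of the inbred strains C57BL/6J (B6) and CastEi/J (Cast), with 8 embryos from B6 mothers and Cast fathers and 8 from Cast mothers and B6 fathers, each set from 2 litters. The N2 embryos came from F1 animals, bred from B6 females and Cast males, crossed back to B6: 89 embryos in 17 litters had a B6 mother and an F1 father, and 65 in 12 litters had an F1 mother and a B6 father. At each autosomal gene an N2 embryo is either homozygous for B6 or heterozygous, so its own genotype can be compared between littermates. Somite number, the count of paired body segments that tracks developmental age, was given for 147 N2 embryos and ran from 42 to 57.

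Libraries were made with 3SEQ, which reads the 3′ ends of polyadenylated RNA. Levels are given as RPM, the reads of a gene scaled to a total of 1000000 reads on genes. They are not divided by transcript length, because each transcript is read near its end. F1 embryos had 15703888 to 38234229 reads on genes and N2 embryos 245220 to 5370322, and 13 N2 embryos had under 1000000. N2 libraries were sequenced in 14 lanes, A to N, on 2 flowcells. In 8 lanes all embryos had a B6 mother and in 5 all had an F1 mother, while 1 lane held both, so the mother's genotype and the lane can hardly be told apart. Embryos of a litter and libraries of a lane are not independent of each other, and p-values over embryos are too small where a gene varies by litter or lane. Markers of a whole embryo were found: red cell, liver, neural, muscle and cartilage markers were present in every embryo. Summed lens markers ran from 0 to 126 RPM in N2 embryos, with a median of 18.1. The summed placental and decidual markers had a median of 0 RPM and reached 22.9 in 1 N2 embryo, with Prl3d1 and Prl2c2 at 0 in every embryo.

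The proteasome degrades proteins tagged with ubiquitin. Its core is a stack of alpha and beta rings that encloses the cutting sites. A cap made of a base, which unfolds the substrate with 6 ATPases, and a lid, which removes the ubiquitin, controls entry. Immune subunits replace the constitutive catalytic subunits in cells exposed to interferon and in blood cells, activators bind the core in place of the cap, and dedicated chaperones assemble core and base. When proteasome activity falls, cells raise most subunits together through the factor Nfe2l1, which binds antioxidant response elements in their promoters.

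Of 41 proteasome genes with a RefSeq promoter (250 bases before to 50 after the start, assembly GRCm38.p6), 6 held the core letters of that element, TGACNNNGC on either strand, or 14.6%. The share was 12.5% of 27025 promoters and 14.7% of the promoters of genes averaging 5 RPM or more. The 6 were Psmb5, Psmb6, Psmc6, Psmd9, Psmd12 and Psme4. The windows of 3 of them are printed, with the element in capitals, because Psmb5 and Psmb6 encode catalytic subunits and because Psmd9 and Psmb6 return below for their allele fractions. The first lies 1 to 9 bases before the start of Psmb6, at chr11:70525336-70525356 on the plus strand. The second lies 39 to 47 bases before the start of Psmb5, at chr14:54618022-54618054, printed in the direction of the gene, which is on the minus strand. The third lies 23 to 31 bases before the start of Psmd9, at chr5:123228147-123228179 on the plus strand.
Psmb6: gactaaagagagTGACGGAGC
Psmb5: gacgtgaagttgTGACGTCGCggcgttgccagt
Psmd9: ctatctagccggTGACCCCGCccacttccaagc
CCAAT, the letters bound by NF-Y, stood in 15 of the 41 promoters (36.6%) against 37.9% of all promoters. Binding was not measured.

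Transcripts of most subunits were abundant, but members of one ring differed widely in reads. In the beta ring Psmb6, the caspase-like catalytic subunit, had 1292 ± 287 RPM (SD, n = 154 N2 embryos, as for all levels that follow). Psmb1 had 872 ± 272 RPM, Psmb4 564 ± 231, Psmb7 (the trypsin-like subunit) 268 ± 178 and Psmb2 151 ± 61.6. Psmb3 had 15.9 ± 13.0 RPM and Psmb5, the chymotrypsin-like subunit, 6.54 ± 8.94. In the alpha ring Psma7 had 1422 ± 515 RPM, Psma6 148 ± 212, Psma1 112 ± 172 and Psma2 102 ± 90.3. The other alpha genes were lower, with 22.1 ± 23.01 RPM for Psma4, 11.6 ± 13.1 for Psma3 and 1.59 ± 1.48 for Psma5. Each ring holds equal numbers of its subunits, and whether the unequal reads come from transcription or the counting of 3′ ends was not tested.

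The base ATPases ran from Psmc3 with 1040 ± 238 RPM and Psmc5 with 566 ± 140 through Psmc1 (275 ± 70.9) and Psmc4 (190 ± 98.96) to Psmc2 (77.2 ± 74.3) and Psmc6 (50.8 ± 63.6). Psmd1, a scaffold of the base, had 442 ± 122 RPM, the ubiquitin receptor Psmd4 306 ± 92.7 and the scaffold Psmd2 69.9 ± 38.02. In the lid Psmd13 (813 ± 220 RPM), Psmd8 (498 ± 167), Psmd3 (386 ± 89.8) and Psmd7 (299 ± 184) were highest. Psmd12 had 57.2 ± 75.4 RPM, Psmd11 28.97 ± 20.04, Psmd6 26.9 ± 36.4 and Psmd14, which encodes the deubiquitinase, 26.1 ± 25.3. Where an SD is larger than its mean, the libraries fell into high and low lanes, as described further on.

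Of the immune catalytic subunits Psmb10 was the highest, at 118 ± 30.1 RPM, while Psmb9 had 7.44 ± 3.43 and Psmb8 5.64 ± 2.37. The 3 together summed to 132 ± 31.6 RPM, against 3169 ± 675 for the 7 constitutive beta genes. Of the interferon-induced activator pair Psme1 had 102 ± 55.8 RPM and Psme2 2.51 ± 1.53. The nuclear activator Psme3 had 202 ± 70.4 RPM, Psme4 35.3 ± 36.8 and the inhibitor Psmf1 68.5 ± 15.7. Among chaperones of the core Psmg4 had 167 ± 66.8 RPM, Psmg3 126 ± 37.2, Psmg1 87.5 ± 47.3 and Psmg2 86.2 ± 56.5. Among those of the base Psmd9 had 97.3 ± 75.5 RPM, Psmd5 32.99 ± 16.6 and Psmd10 12.9 ± 13.1, and Psmc3ip had 59.8 ± 20.4. The thymic subunit Psmb11 and the testicular subunit Psma8 were near the floor, at means of 0.298 and 0.276 RPM, with no read in 91 and 111 of the embryos. Psma5, Psme2, Psmb11 and Psma8 had means under 5 RPM and entered none of the expression tests, which left 45 members among 10007 genes. A mean in whole embryos cannot tell fewer cells of a type from less RNA per cell, which bears most on the immune subunits.

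Several of the lower levels belong to genes with near-identical sequence elsewhere. The authors discarded reads with a near-equal second position, and the last 300 bases of 9 members matched another place in the mm9 genome over at least 76 bases at 96% identity or more. The match covered 100% of these bases in Psmd14 and Psme2, 99.7% in Psma4 and Psmb5, 99.3% in Psma5, 98.7% in Psmd2 and 84% in Psmb3. Psmb11 was covered to 50.7% and Psmd9 to 26.7%. The 6 structural subunits with at least 80% covered had a median level of 19.0 RPM, against 275 RPM in the other 25. Counting a match of any extent, 6 of the 45 members tested had one (13.3%), against 7.62% of 9751 genes. The levels of these members are uncertain, and the part of discarded reads in them was not tested. Exons of several others overlap a neighbour, such as Psmb9 with Tap1 and Psmc3ip with Mlx, both on the opposite strand, and Psmd1 with Armc9 on the same strand.

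Proteasome transcripts varied widely between lanes. The median share of variance in ranked RPM that lay between lanes was 62.4% for the 45 members and 59.7% for all genes tested. Between the lane with the lowest median and that with the highest, 14 members differed by at least 10-fold (31.1% of the 45, against 23.6% of all genes tested), and 12 of these were highest in lane K, L, M or N. The median ratio was 3.60 over the members and 3.95 over all genes. Psma6 ran from a median of 8.57 RPM in lane B to 479 in lane N, a ratio of 55.9. Psma1 ran from 7.71 RPM in lane I to 394 in lane K (51.0-fold). Psme4 ran from 2.35 to 86.4 RPM between the same lanes (36.7-fold). The others were Psmd6, Psmc6, Psmd12, Psmb5, Psma3, Psma4, Psmc2, Psma2, Psmd14, Psmd10 and Psmd11, which was the least lane-dependent of them at 11.3-fold. At the other end 19 members differed by less than 3-fold between lanes, among them Psmd3 (1.67-fold), Psmb8 (1.70), Psmb10 (1.73), Psmb6 and Psmd13 (1.80 each).

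**Figure D1:**
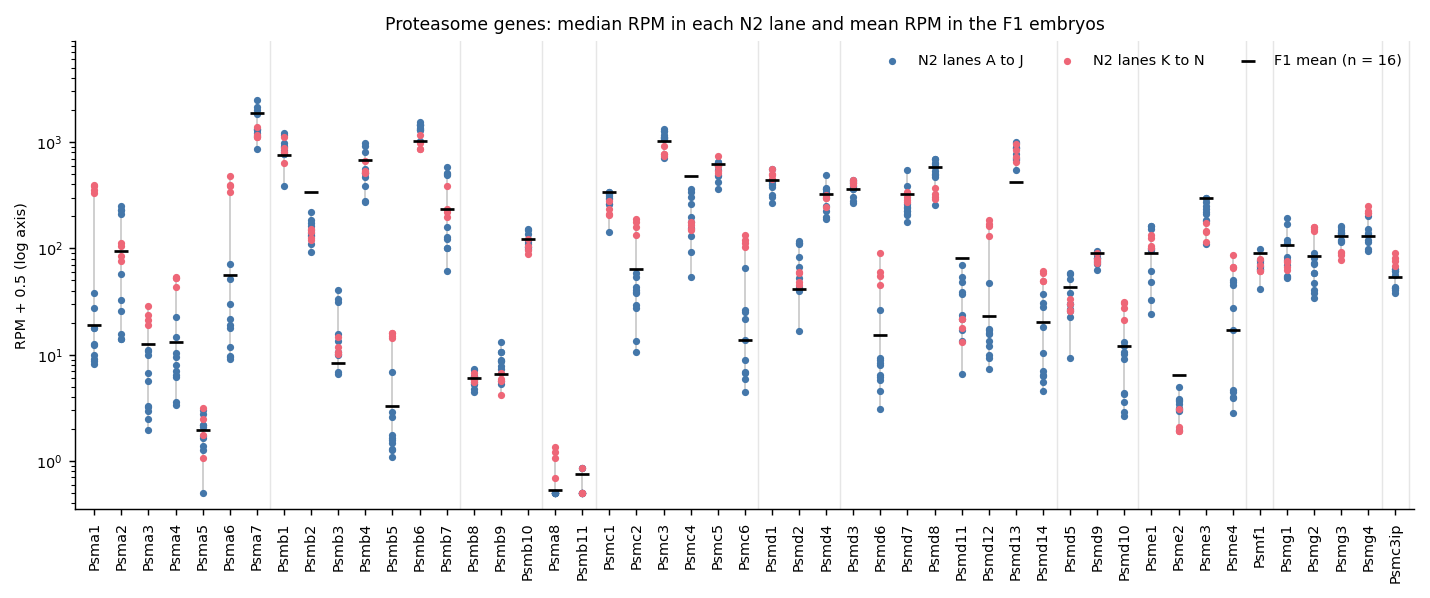
Median RPM of each proteasome gene in each of the 14 N2 lanes, on a log axis after adding 0.5, grouped by class; points for lanes A to J are blue and for K to N red, and the black dash is the mean of the 16 F1 embryos. Genes such as Psma6, Psma1 and Psmd12 spread over more than 10-fold with lanes K to N at the top, while Psmd3, Psmb8 and Psmb6 stay within a narrow range.

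The lane ratio went with base composition. Over the 45 members the ratio had a Spearman rho of -0.713 with the GC content of the last 300 bases, and over 9663 genes the rho was -0.503. The 14 members with large ratios had a median GC content of 39% and the 19 with small ratios 50%. These are correlations across genes, which are not independent replicates, and whether base composition set the ratios was not tested. For several members that were highest in lanes K to N the F1 libraries were low. The F1 mean was 0.165 of the N2 mean for Psma1, 0.260 for Psmc6, 0.380 for Psma6 and 0.399 for Psmd12. It was above the N2 mean for Psmd11 (2.80-fold), Psmc4 (2.52), Psme2 (2.36) and Psmb2 (2.26).

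Psmd9, a chaperone of the base, followed another label. N2 libraries carry a number within their lane, and in lanes H to N that number accounted for 77.4% of the variance of ranked Psmd9 after the lane, the highest share among the 10007 genes, whose median was 19.0%. In lane J libraries 2, 3, 4 and 10 had 311 to 620 RPM and the other 7 had 53.4 to 111 RPM. The same numbers lay above all others in lanes H and M too. In lanes A to G the share was 24.7% and the ranges overlapped in every lane. The gene and the numbers were picked after their values were seen, so no test is attached.

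Pooled over lanes, transcripts of 2 immune subunits rose with somite number and those of several structural subunits fell. Spearman's correlation with somite number passed a q of 0.05 for 12 of 45 members, 3 upward and 9 downward. Over all 10007 genes 14.1% passed upward and 7.97% downward. The upward members were Psmb8, Psmb9 and the ubiquitin receptor Psmd4, and the downward members were Psma1, Psma2, Psmb1, Psmb7, Psmc1, Psmd1, Psmd5, Psmd10 and Psmc3ip. Because lanes differ in stage, lane means were also taken out of both ranks. Psmb8 and Psmb9 then still passed upward, and Psmc1, Psmc3ip and the lid subunit Psmd3 passed downward, against 8.50% and 3.00% of all genes. Psma1, Psma2, Psmb1, Psmb7, Psmd1, Psmd4, Psmd5 and Psmd10 did not pass there.

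Psmb8 replaces Psmb5 in the immune form and lies on chromosome 17 (34334666 to 34338399 in mm9, plus strand), beside Psmb9 (34318933 to 34324709, minus strand). It had a lowest value of 1.30 RPM, a median of 4.23 and a highest of 8.59 in the 21 embryos with at most 45 somites. In the 14 embryos with at least 53 somites these were 3.89, 6.16 and 11.7 RPM. The ranges overlapped, and the means were 4.32 ± 2.07 and 6.67 ± 2.62 RPM. Over all 147 embryos rho was 0.293 (q = 0.00352) and Pearson's r 0.306, with permutation p-values of 0.00035 and 0.00017 from 100000 resamples. Resamples here and below shuffled somite numbers over all embryos, across lanes and litters. They were run only for members called with or without the lane step, so their p-values add no separate support. Without the 2 embryos farthest from the median stage r was 0.284. With lane taken out rho was 0.286 (q = 0.0118), and within 1 mother genotype it was 0.354 (B6) or 0.163 (F1). In the F1 litters, ordered by their somite ranges of 41 to 43, 46 to 48, 48 to 50 and 58 to 63, Psmb8 averaged 3.59, 4.89, 6.70 and 7.33 RPM. The litters of 41 to 43 and 46 to 48 somites had Cast mothers and the others B6 mothers, so stage and cross cannot be told apart.

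Psmb9, which replaces Psmb6, had 0.952 to 12.3 RPM with a median of 5.22 in the younger set and 0 to 16.6 with a median of 11.7 in the older. Its means there were 6.07 ± 3.03 and 10.7 ± 5.04 RPM. Its rho was 0.213 (q = 0.0450) and its r 0.245, with permutation p-values of 0.00932 and 0.00267, and r was 0.220 without the 2 farthest embryos. With lane taken out rho was 0.244 (q = 0.0424). Among embryos of F1 mothers alone rho without the lane step was -0.176. Psmb10, which replaces Psmb7, missed the threshold, with 110 ± 23.6 RPM in the younger and 137 ± 29.05 in the older set (rho = 0.145, q = 0.191). Psme1 missed it as well (rho = -0.148, q = 0.181), and Psme2 was too low to be tested.

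Of 6 leukocyte markers, all but Ptprc had a positive rho with somite number. The summed level of 6 leukocyte genes ran from 69.2 to 298 RPM, with a rho of 0.402 with somite number and of 0.357 after lanes were taken out. Ptprc, the defining pan-leukocyte gene, averaged 0.434 RPM and went the other way, with a rho of -0.147 (-0.252 with lanes taken out). The sum had a rho of 0.351 with Psmb8, 0.240 with Psmb9 and 0.664 with Psmb10, and of -0.446 with Psme1. After lanes were taken out these were 0.354, 0.234, 0.470 and -0.243. The part of blood cells in the immune subunits' rise was not tested.

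Psmc3ip (chromosome 11, 100953137 to 100956750 in mm9, minus strand) had 37.4 to 116 RPM with a median of 64.8 in the younger set and 19.4 to 80.5 with a median of 41.7 in the older. Its rho was -0.310 (q = 0.00173) and its r -0.353, with permutation p-values of 0.00023 and 2e-05, and r was -0.318 without the 2 farthest embryos. With lane taken out rho was -0.305 (q = 0.00602), -0.368 with B6 mothers and -0.186 with F1 mothers. Without the lane step rho among embryos of F1 mothers was 0.207, the opposite direction. The F1 litters, in the same order as above, averaged 71.7, 57.0, 43.5 and 40.7 RPM, with stage and cross again not to be told apart.

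**Figure D2:**
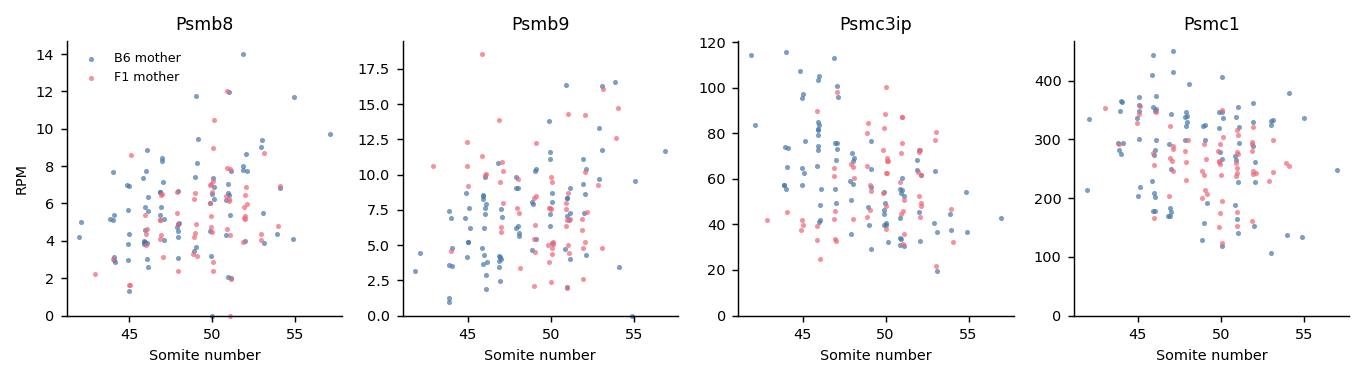
RPM of Psmb8, Psmb9, Psmc3ip and Psmc1 in each of 147 N2 embryos against somite number, coloured by the mother's genotype, with a small horizontal jitter. Psmb8 and Psmb9 drift upward and Psmc3ip and Psmc1 downward within a wide scatter at every stage.

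Psmc1, a base ATPase, fell from 313 ± 51.8 to 259 ± 84.1 RPM between the same sets (rho = -0.248, q = 0.0170). Its r was -0.237, with permutation p-values of 0.00259 for rho and 0.00408 for r, and -0.228 without the 2 farthest embryos. With lane taken out rho was -0.240 (q = 0.0470), but 0.135 among embryos of F1 mothers. Psmd3 passed only within lanes (rho = -0.363, q = 0.000491). Its pooled rho was 0.0122 and its r 0.00446, with permutation p-values of 0.883 and 0.958, and r was 0.0326 without the 2 farthest embryos. Its levels were 350 ± 91.1 and 383 ± 50.6 RPM in the younger and older sets.

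Psmb7 and Psma2 had the largest negative rho before lanes were taken out. Psmb7 fell from 463 ± 144 to 216 ± 148 RPM (rho = -0.345, q = 0.000344, r = -0.381, both permutation p = 1e-05, the smallest 100000 resamples can give). Psma2 fell from 178 ± 83.4 to 74.4 ± 92.8 RPM (rho = -0.330, q = 0.000725, r = -0.321, permutation p = 6e-05 and 0.00011). Without the 2 farthest embryos r was -0.361 and -0.306. The lane held 78.3% of the variance of Psmb7 and 80.5% of that of Psma2. With lane taken out rho was -0.0591 for Psmb7 (q = 0.740) and -0.207 for Psma2 (q = 0.103). Of the other members called before lanes were taken out, Psmd4 rose from 247 ± 64.5 RPM in the younger to 363 ± 150 in the older set (rho = 0.234, q = 0.0252). Psmd1 fell from 481 ± 123 to 391 ± 112 RPM (rho = -0.236, q = 0.0242) and Psmb1 from 1018 ± 254 to 814 ± 288 (rho = -0.225, q = 0.0328). Psma1 fell from 138 ± 176 to 41.5 ± 90.4 RPM (rho = -0.226, q = 0.0323). The base chaperones Psmd5 and Psmd10 fell from 42.4 ± 18.7 to 25.8 ± 14.0 RPM (rho = -0.222, q = 0.0361) and from 17.03 ± 12.9 to 7.64 ± 6.67 (rho = -0.228, q = 0.0303). Pearson's r was 0.266 for Psmd4 (0.254 without the 2 farthest embryos) and from -0.272 for Psmd1 to -0.192 for Psma1 in the others (-0.252 and -0.165). The permutation p-values of these 6 members ran from 0.00422 to 0.00689 for rho and from 0.001 to 0.0202 for r.

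Over litter means no member passed with Spearman's test (3 at an unadjusted p under 0.05), against 1.74% of all genes. With lane as a term, edgeR's quasi-likelihood test called 6 members and 10.0% of all genes. The 6 were Psmb8 upward and Psma2, Psmc1, Psmc3ip, Psmd1 and Psmd3 downward. A difference in slope between the mothers' genotypes passed for 0 of 45 members (4 at an unadjusted p under 0.05) and 1 of 10007 genes in edgeR.

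The mother's genotype separated 5 of 44 autosomal members at a Bonferroni-adjusted p of 0.01 in the Mann-Whitney test. Over all autosomal genes tested 4.28% were higher with an F1 mother and 0.750% with a B6 mother. The beta subunit Psmb3 had 2.23 to 31.8 RPM (median 9.62) with B6 mothers and 2.39 to 71.4 (median 19.2) with F1 mothers. Its means were 10.2 ± 5.56 and 23.7 ± 16.0 RPM, a ratio of 2.32 (adjusted p = 4.20e-05). Psma2 had medians of 38.6 RPM (2.35 to 329) with B6 and 164 (17.5 to 291) with F1 mothers, and means of 69.9 ± 75.98 and 146 ± 90.5 (adjusted p = 0.000212). The spread of both genes was wide within each genotype of the mother. Psmb7 had 204 ± 148 and 355 ± 180 RPM (adjusted p = 0.00110), and Psme1 had 85.7 ± 60.4 and 124 ± 39.6 (adjusted p = 0.00556). Only Psmd4 was higher with B6 mothers, at 339 ± 103 against 262 ± 49.4 RPM (adjusted p = 0.000530). The ranges of embryos overlapped for all 5.

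Levels were uneven among lanes with mothers of 1 genotype. Psmb3 was at medians of 31.03, 33.2 and 40.2 RPM in lanes D, E and G, all with F1 mothers, but at 9.76 in lane C and 9.73 in lane L, also with F1 mothers, and at 6.10 to 15.1 in the lanes with B6 mothers only. Over litter means, over lane means and with lane as a random block in limma voom no member passed (13, 2 and 10 at an unadjusted p under 0.05). Neither did any of the 9733 genes tested. The Mann-Whitney p-values used a normal approximation. With it no gene could reach this threshold over litter or lane means, so those counts decide nothing. An exact test over litter means was not run. None passed on the second flowcell (25 at an unadjusted p under 0.05), where 0.247% of 9733 genes passed and 6001 had an unadjusted p under 0.05. On the first flowcell 2.18% of all genes passed, 32 of these 212 being higher with F1 mothers. There 6 members passed, of which only Psmb3 was higher with F1 mothers. Psmb6, Psmc5, Psmd2, Psmg2 and Psmg3 were lower with F1 mothers there. Mother and lane cannot be told apart for these genes. The immune subunits did not pass: Psmb8 had 5.89 ± 2.52 RPM with B6 and 5.30 ± 2.12 with F1 mothers, Psmb9 7.11 ± 3.34 and 7.88 ± 3.53, and Psmb10 125 ± 32.5 and 109 ± 23.6.

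Between the reciprocal F1 crosses 1 of 45 members had values that did not overlap (2.22%, against 4.03% of all genes tested). This was Psmc3ip. With B6 mothers its 8 values were 41.6, 44.0, 36.4, 47.6, 48.2, 37.95, 38.2 and 45.5 RPM, and with Cast mothers 68.9, 71.4, 74.8, 71.8, 65.7, 53.7, 51.8 and 56.7 RPM. Litters with Cast mothers were younger, so cross, litter and stage cannot be told apart. Counts of the litter of 46 to 48 somites pooled HiSeq runs only. Those of the other litters pooled a GAIIx and a HiSeq run, so the sequencer differed between litters too. Psmb8 had 6.94 ± 0.795 RPM with B6 mothers and 4.24 ± 1.02 with Cast mothers, with overlap. Psmb2 was high in one litter with a Cast mother, at 524, 551, 526 and 552 RPM. It was at 359, 367, 240 and 206 RPM in the other, that of 46 to 48 somites.

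Allele fractions showed B6 transcripts in excess for several subunits. Reads that cover a strain difference were counted by the authors as votes for B6 or Cast, and the B6 allele fraction (BAF) is the B6 share of votes in heterozygous embryos, 0.5 where both alleles are equal. With at least 20 votes in each of the 4 crosses, 35 members could be tested. The paired test called 9 of them at a Bonferroni-adjusted p of 0.01 with a BAF outside 0.45 to 0.55, all with the B6 allele higher. That holds for F1 and N2 embryos pooled. With the Cast allele higher, F1 embryos alone called Psmd7 and N2 embryos alone called Psmb1. Psmb3, called in the pool, was called in neither generation alone. Over 9084 genes 9.70% were called in that direction and 9.17% with the Cast allele higher. The median BAF was 0.515 over the members and 0.4995 over all genes, and 18 members lay within 0.45 to 0.55.

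The largest fractions among called members were in a chaperone and an activator. Psmd9 had a pooled BAF of 0.635 (adjusted p = 7.14e-13), and its embryo means in the 4 crosses were 0.618 ± 0.0328 (F1, B6 mother), 0.646 ± 0.0502 (F1, Cast mother), 0.657 ± 0.103 (N2, B6 mother) and 0.663 ± 0.105 (N2, F1 mother). Psme3 had 0.630 (adjusted p = 2.09e-16), with cross means from 0.616 to 0.662. Every cross of both genes thus lay on the B6 side.

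Among the subunits of base and core, Psmc5 had a pooled BAF of 0.597 (adjusted p = 3.46e-25), with cross means of 0.604 ± 0.0113, 0.607 ± 0.0159, 0.589 ± 0.0547 and 0.584 ± 0.0473 in the same order. Psmb6 had 0.558 (adjusted p = 2.14e-21), with cross means of 0.564 ± 0.00602, 0.561 ± 0.00873, 0.549 ± 0.0298 and 0.551 ± 0.0252. These fractions rest on 114398 and 241735 votes. Psmb2 had 0.556 (adjusted p = 7.03e-10), Psmc1 0.552 (adjusted p = 7.10e-13) and Psmb3 0.598 (adjusted p = 0.00864, 2632 votes). The base chaperone Psmd5 had 0.573 (adjusted p = 9.81e-12) and Psmc3ip 0.603 (adjusted p = 2.64e-28). Psmc3ip had cross means of 0.594 ± 0.0156, 0.590 ± 0.00681, 0.638 ± 0.0566 and 0.631 ± 0.0523.

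**Figure D3:**
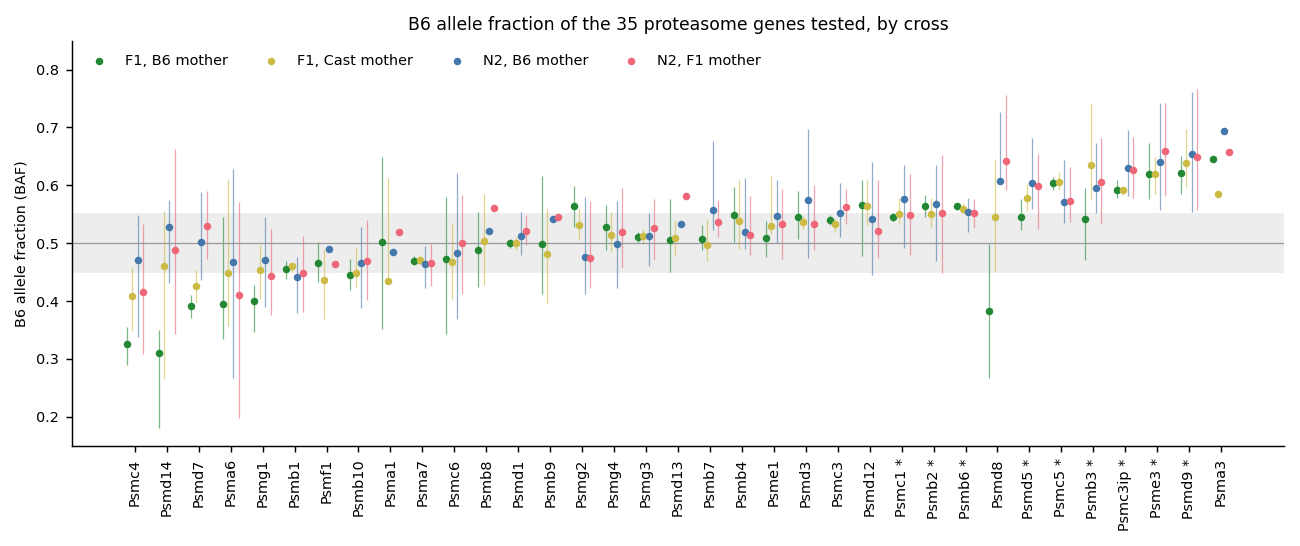
B6 allele fraction of the 35 tested proteasome genes, ordered by their pooled value; points are the pooled fraction in each of the 4 crosses, bars the mean and 1 SD over embryos with at least 20 votes where there were 3 or more, and the grey band spans 0.45 to 0.55. The 9 called genes carry an asterisk, and their pooled fractions, 0.552 to 0.635, lie above the band.

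Another 6 members passed the p threshold with a BAF inside the window. Psmc3 (0.542), Psme1 (0.530), Psmb7 (0.517) and Psmd1 (0.505) were on the B6 side, and Psmb1 (0.456) and Psma7 (0.469) on the Cast side. The generations differed for Psmb7, with 0.501 in F1 and 0.545 in N2 embryos, and for Psmd1, with 0.501 and 0.516. Psma7 had cross means of 0.470 ± 0.00718, 0.470 ± 0.00783, 0.458 ± 0.0363 and 0.463 ± 0.0361, so a small excess of Cast votes was present in every cross. Among the 35 tested members the highest pooled BAF was that of Psma3, 0.642 from 419 votes, which did not pass (adjusted p = 0.330). The lowest of the 35 was that of the ATPase Psmc4, 0.391 from 22200 votes (adjusted p = 0.0134), with cross means of 0.322 ± 0.0321, 0.403 ± 0.0547, 0.443 ± 0.105 and 0.421 ± 0.112.

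None of the immune subunits was called. Psmb8 had a BAF of 0.502 from 1491 votes and Psmb9 0.508 from 984, and Psmb10 had 0.456 from 13676 (adjusted p = 1 for each). Psme2 had 69 votes in all and was not tested. In all 14 members could not be tested. Psmd2, Psmd4 and Psmd11 had 0 votes, Psmd6 had 2, Psma8 7, Psmb5 52, Psmc2 53, Psma4 55, Psma5 68, Psmb11 85.01 and Psme4 230, and Psma2 had 823 votes. Psmd10 is X-linked and had a pooled F1 BAF of 0.798 with B6 mothers and 0.1254 with Cast mothers.

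Votes were not taken evenly from the reads. Psmb4 had 12.8 votes per 1000 reads in F1 embryos and 181 in heterozygous N2 embryos. Psmd8 had 2.01 and 11.6, and Psma1 160 and 22.3. For such genes the F1 and N2 votes came from different mixtures of reads, and the part of this in their BAF was not tested. In homozygous N2 embryos 0.144% of the members' autosomal votes were for Cast, against 47.1% in heterozygous embryos.

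The embryo's own genotype gave a second readout of the same alleles from total RPM. Lane and 15 principal components were taken out of log2(RPM + 0.5), and the rank-sum test called 13 of 44 autosomal members at a q of 0.01, 3 higher and 10 lower in heterozygous embryos. Over all genes 15.0% were called higher and 14.1% lower. The median size of the called differences was 0.17 on the log2 scale for the members and 0.22 for all called genes.

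Psmd7, a lid subunit on chromosome 8 (110104281 to 110112382 in mm9, minus strand), showed the largest difference. In 65 heterozygous embryos it had 173 to 1574 RPM with a median of 328, and in 89 homozygous embryos 81.5 to 550 RPM with a median of 220. The difference was 0.46 ± 0.04 on the log2 scale (SE, q = 1.37e-16), and with lane alone taken out it was 0.59. The heterozygous median was higher in 14 of 14 lanes. The ratio was 3.06 in lane J (954 against 312 RPM) and 2.10 in lane E (592 against 281), and 1.11 to 1.54 in the others.

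The votes of Psmd7 differed between generations. The BAF was 0.390 ± 0.0202 and 0.426 ± 0.0278 in the F1 crosses and 0.513 ± 0.0755 and 0.532 ± 0.0593 in the N2 crosses. Across lanes the N2 fraction ran from 0.449 in lane M to 0.629 in lane J. If the alleles keep their votes' ratio, a BAF gives an expected log2 difference of heterozygous minus homozygous embryos of -log2(2 × BAF). That value was 0.29 from the F1 votes, which has the sign of the observed 0.46, and -0.04 from the N2 votes.

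**Figure D4:**
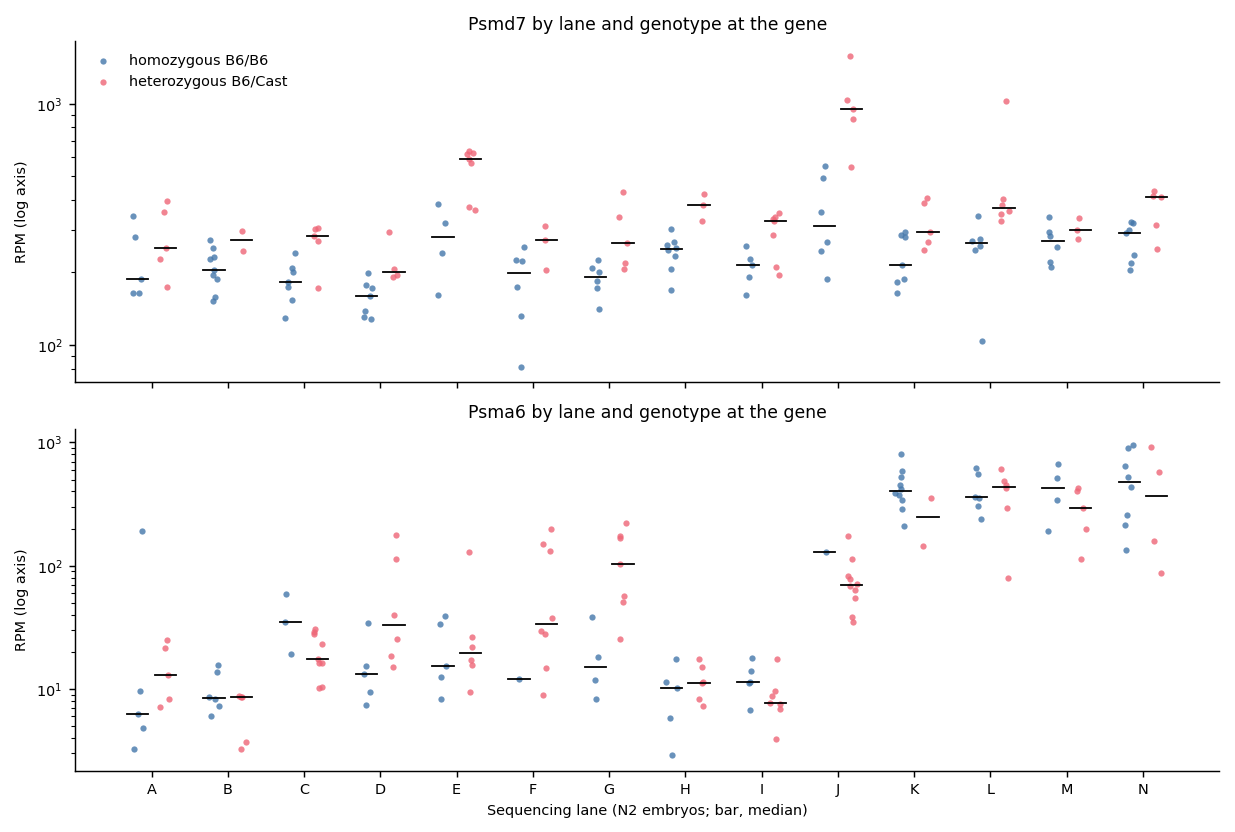
RPM of Psmd7 and Psma6 in each N2 embryo by lane and own genotype, on a log axis; bars are medians. For Psmd7 heterozygous embryos lie higher in all 14 lanes, most in J and E, and for Psma6 their medians lie 2.46 and 6.83 times higher in lanes D and G, lane F has 1 homozygous embryo, and lanes K to N are high in both genotypes.

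Psmd8, also of the lid (chromosome 7, 29959207 to 29965692 in mm9, minus strand), had 206 to 944 RPM with a median of 578 in heterozygous embryos and 155 to 691 with a median of 477 in homozygous ones. The difference was 0.21 ± 0.02 (q = 7.90e-17), and the heterozygous median was higher in 13 of 14 lanes, lane N being the exception at 282 against 312 RPM. Votes gave 0.10 from F1 embryos and -0.32 from N2 embryos. Of the 956 N2 votes 789 came from 19 embryos in lanes K to N, with a BAF of 0.667, and 167 from 46 embryos in the other lanes, with a BAF of 0.425. Psmd7 and Psmd8 were the 2 of 12 called members with votes whose RPM went against the N2 votes.

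Psmb10 was the only immune subunit called. It had 64.04 to 219 RPM (median 115.1) in 62 heterozygous embryos and 54.7 to 235 (median 114.6) in 92 homozygous ones, so the ranges nearly coincided. The difference was 0.09 ± 0.03 (q = 0.00251), near the 0.10 that the N2 votes give, and with lane alone taken out it was not called. Psmb8, Psmb9 and Psme1 were not called.

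The 10 members that were lower in heterozygous embryos include 6 of the 9 called for excess B6 votes. Psmc3ip had 19.4 to 96.03 RPM (median 54.8) in 77 heterozygous embryos and 30.7 to 116 (median 63.7) in 77 homozygous ones. Its difference was -0.26 ± 0.03 (q = 1.02e-11), with -0.33 from the N2 votes. Psmc5 had 292 to 782 RPM (median 518) in 76 heterozygous and 386 to 1296 (median 613) in 78 homozygous embryos. Its difference was -0.22 ± 0.02 (q = 1.27e-15), with -0.19 from the votes. For both genes the heterozygous median was higher in 1 of 14 lanes.

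Psmd5 fell by 0.20 ± 0.05 (q = 1.37e-06) with -0.27 from the votes, Psmc1 by 0.10 ± 0.02 (q = 2.75e-05) with -0.18, and Psmc3 by 0.08 ± 0.02 (q = 2.22e-05) with -0.15. Psme3 fell by 0.09 ± 0.02 (q = 0.000289), less than the -0.38 its votes give. Psmb6 fell by 0.07 ± 0.02 (q = 0.000156) with -0.15 from the votes. With lane alone taken out Psmb6 differed by -0.02 (q = 0.913) and its heterozygous median was higher in 7 of 14 lanes. Psma3 (-0.26 ± 0.09, q = 0.00575), Psmd2 (-0.17 ± 0.07, q = 0.00514) and Psmd1 (-0.06 ± 0.02, q = 0.00621) were also called lower. With lane alone taken out these 3 and Psmd5 were not called (q = 0.0881, 0.381, 0.0775 and 0.0509), and Psmd2 differed by -0.07. Of the 12 called members with votes, 10 had the sign of their N2 votes. These votes come from the same libraries as the RPM, and the share among all called genes is not given here. The F1 votes had the sign of the difference in each of the 12, though for Psmd1 they gave only -0.002. An embryo's genotype at one gene is shared with its neighbours, so these differences belong to a stretch of chromosome. Psmc3ip, Psme3 and Psmc5 lie on chromosome 11 within 5 Mb of the same called gene, Taco1 (0.76 higher on the log2 scale), and Psmd7 and Psmb10 lie on chromosome 8 within 5 Mb of Zdhhc1 (1.78 higher).

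**Figure D5:**
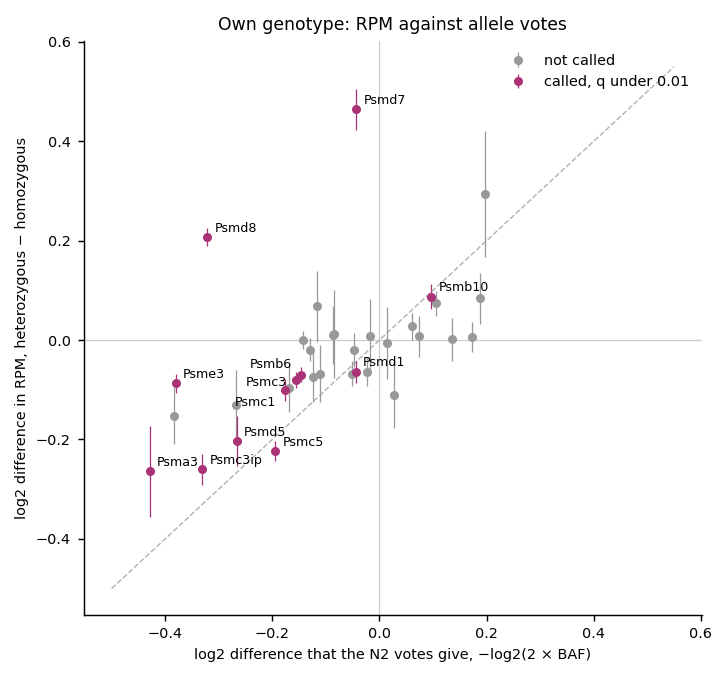
Log2 difference in RPM of heterozygous minus homozygous N2 embryos, with its SE, against the difference expected from the N2 votes, -log2(2 × BAF), for the proteasome genes with both; the dashed line marks equal values. Psmc3ip, Psmc5 and Psmd5 lie near the line in the lower left, Psme3 lies above it, and Psmd7 and Psmd8 lie far above it.

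Psma6, an alpha subunit (chromosome 12, 56485209 to 56519441 in mm9, plus strand), was not called for its own genotype over all lanes, but 3 lanes stood apart when its values were looked at. In lanes D, F and G the 21 heterozygous embryos had 8.94 to 223 RPM with a median of 50.8, and the 10 homozygous ones 7.43 to 38.4 with a median of 12.6. The heterozygous embryos held 477 B6 and 1471 Cast votes there, a BAF of 0.245. Each lane gave a like pooled fraction: 0.240 in D, 0.239 in F and 0.251 in G. Single embryos there differed. In 12 with over 40 RPM the fraction ran from 0.0690 to 0.371, with a median of 0.160. In 4 with 40 RPM or less it ran from 0.163 to 0.737, with a median of 0.464. In lanes K to N heterozygous embryos had a median of 356 RPM and homozygous ones of 406, with a BAF of 0.536, and in the other lanes the BAF was 0.538. Of the F1 embryos, 1 with a B6 mother had 56.3 RPM and a BAF of 0.194, and 1 with a Cast mother had 93.8 RPM and a BAF of 0.177. Another F1 embryo, with a Cast mother, had 514 RPM and a BAF of 0.467. These lanes and embryos were chosen after their values were seen, so they carry no test.

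Correlations among proteasome genes were close to those among all genes. With lane means taken out, the 435 pairs among 30 subunits of rings, base and lid had a median rho of 0.0636 over 154 embryos, against 0.0436 for 50065021 pairs of all genes tested. Without the lane step the medians were 0.0367 and 0.0567. Within the alpha ring the median was 0.293 and 15 of 15 pairs were positive. Within the beta ring it was 0.172 over 21 pairs, and between the rings 0.135. Within the base it was 0.0342 and within the lid -0.0521, where 46.4% of 28 pairs were positive. The immune subunits had a median rho of 0.149 among themselves and of -0.0159 with the structural subunits. Pairs share library, lane and depth, so these values are descriptions.

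The closest pairs were Psmd14 with Psme4 (rho = 0.664), Psmd14 with Psmd10 (0.660), Psmb7 with Psmc4 (0.647), Psmb4 with Psmc4 (0.611) and Psmb10 with Psmb6 (0.605). The most opposed were Psmg3 with Psma3 (-0.553) and Psmd13 with Psmg2 (-0.545). Outside the list, the genes whose ranks were most like the mean rank of the 30 subunits, over the same 154 embryos, were Ncbp1 (rho = 0.678), Tomm7 (0.665), Polr2b (0.648), Tead2 (0.638), Angel2 (0.635), 2310028O11Rik (0.633), Becn1 (0.632), Snw1 (0.621), Ndufb5 (0.620) and Xpo5 (0.619). All other genes had a median rho of 0.109, and 0.462 was their 95th percentile.

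A list of 27 partners of the proteasome (its transcription factors, ubiquitin genes, shuttle receptors and ligases) was read beside it, and 26 were in the tables. For allele fraction 6 of 17 tested were called, against 18.9% of all genes. Among them, the B6 allele was higher for Vcp (BAF 0.978), the segregase that delivers substrates, and for Nfe2l1 (0.821) and Shfm1 (0.554). The Cast allele was higher for the ligase Ube3c (0.444). For their own genotype 9 of 21 were called, against 29.2% of all genes. Among them, Ubb (-0.82), Vcp (-0.69) and Nfe2l1 (-0.26) were lower in heterozygous embryos, and Rad23b (0.21), Ubqln4 (0.17), Ube3c (0.11) and Ubqln1 (0.10) higher, in log2 units. Against somite number, with lane taken out, 1 of 23 passed (11.5% of all genes did), the deubiquitinase Uchl5, downward (rho = -0.245). By the mother's genotype 0 of 21 passed in the Mann-Whitney test (3 at an unadjusted p under 0.05, with 5.03% of all genes passing), with the small lid subunit Shfm1 nearest (adjusted p = 0.0182).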

How the data were processed

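3SEQ was performed on single whole embryos. The authors trimmed poly(A) tails, mapped reads with Bowtie2 (version not given in the sources used here) to mm9 and to mm9 carrying Cast SNPs, discarded reads with a second position within 3 edits, and deposited read counts on exons per RefSeq gene. They also deposited allele votes, which are estimated counts, with 1 vote per read split over its SNPs, and genotypes from a hidden Markov model. F1 counts pool 2 sequencing runs per embryo. Of 168 N2 libraries 14 were not used: 8 have no group in the labels and 6 no genotypes. The replicates are embryos.

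Counts were divided by reads on genes to give RPM, and genes averaging 5 RPM or more were tested. Following the paper's methods, somite number was tested with Spearman's correlation (Benjamini-Hochberg q under 0.05), the mother with the Mann-Whitney test and allele fraction with the methods' paired t-test (both Bonferroni-adjusted p under 0.01), and own genotype with the rank-sum test (q under 0.01). The paper's scan of every marker region with permuted assignments was not repeated, and each gene was tested against its own genotype alone. PEER was replaced by lane and 15 principal components of log2(RPM + 0.5), and the paper's removal of repetitive and retrotransposed genes was not repeated. Adjusted p-values are over all genes tested. edgeR 4.0.16 (quasi-likelihood test), DESeq2 1.42.0 and limma 3.58.1 were alternatives, as were other filters, scalings and subsets of embryos. blastn 2.17.0+ searched transcript ends in mm9. Python 3.11.15, scipy 1.17.1 and R 4.3.3 were used, and each test was tried on simulated data first. The simulated counts held no variation in RPM between lanes or litters, so they do not show how the tests behave under it. The paired t-test found 57.9% of the changes planted in simulated votes. Depth limits precision most in N2 embryos with few reads, and votes limit it for alleles.

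Every gene of the family is named once. Full values were given for those called in any test, those with the largest and smallest BAF, and Psmb8, Psmb9, Psmb10, Psme1 and Psme2. The members and lists were chosen with earlier results of these data known. Values of some partner genes are not reported here.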

Additional observations from a re-analysis of the deposited data

Results flagged for a closer look

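In the F1 crosses, which hold 8 embryos each, Dixon's test marked the highest or lowest embryo in 7 of 90 groups of RPM and 6 of 59 groups of BAF, where chance alone marks about 1 in 20. For RPM with Cast mothers, 1 embryo stood apart for 4 genes: Psma6 at 514 RPM (next 93.8), Psma1 at 91.03 (next 29.7), Psmd6 at 87.6 (next 25.5) and Psma4 at 53.2 (next 25.3). With B6 mothers the highest embryo stood apart for Psme4 at 54.9 RPM (next 25.3), Psmc6 at 26.8 (next 15.1) and Psmd6 at 17.8 (next 12.1). For BAF the highest embryo stood apart for Psmb2 at 0.615 with a Cast mother (next 0.551), and for Psmd5 at 0.609 (next 0.561) and Psmg3 at 0.529 (next 0.513) with B6 mothers. The lowest stood apart for Psmc1 at 0.528 with a B6 mother (next 0.544) and for Psma6 in both crosses, at 0.194 with a B6 mother (next 0.410) and 0.177 with a Cast mother (next 0.467).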

How the results depend on the processing

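The count for somite number, 12 in the report, stood beside 14.1% of all genes passing upward and 7.97% downward. It was 5 with lane means taken out (11.5% of all genes) and 6 with edgeR and lane as a term (10.0%). Over litter means it was 0 (1.74%), with 3 members at an unadjusted p under 0.05. With B6 mothers only it was 28 (51.6%), 5 of them upward. With F1 mothers only it was 16 (23.1%), 10 of them upward. Once lane was taken out it was 5 with B6 mothers (7.04%) and 0 with F1 mothers (2.73%). There 10 and 3 members had an unadjusted p under 0.05. The count was 3 with lane and library number taken out (9.93%). The count for the mother, 5 (5.03% of all genes passed), was 20 at a q under 0.05 (31.6%). It was 0 on flowcell 2 (0.247%) and with limma voom, where no gene passed. It was also 0 over litter means and over lane means, where the test with its normal approximation could not reach the threshold for any gene. The count for allele fraction, 9 (18.9% of all genes passed), was 15 without the BAF window (23.2%). It was 8 in F1 embryos alone (12.2%), with Psmd7 on the Cast side. In heterozygous N2 embryos alone it was 10 (16.2%), with Psmb1 on the Cast side. With at least 100 votes in each cross it was 10 of 33 (25.4%), with Psmc4 on the Cast side. The count for own genotype, 13 (29.2% of all genes passed), was 4 with nothing taken out (12.2%) and 7 with lane only (19.6%). It was 7 with lane and somite number (18.2%), 6 with edgeR (18.1%) and 6 with F1 mothers (17.8%). On flowcell 1 it was 8 (22.5%) and on flowcell 2 it was 6 (15.2%). Within litters, with litter means inside each lane and 15 principal components taken out in 152 embryos, it was 13 (26.3% of all genes), with Psma3 lost and Psme1 added.

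Directions turned for these members: with F1 mothers only, Psmc3ip (rho 0.207), Psmd1 (0.215), Psmd10 (0.0537) and Psmb9 (-0.176). With F1 mothers and lane taken out, Psma2 (0.136), Psmc1 (0.135), Psma1 (0.0862), Psmb1 (0.0780), Psmd10 (0.0524) and Psmd5 (0.0343) turned. Psmd4 turned with B6 mothers and lane taken out (-0.199), Psma1 with lane and library number taken out (0.0347), Psmb1 with edgeR (0.00179 log2 units per somite) and Psmd2 by own genotype with nothing taken out (0.761 RPM, heterozygous minus homozygous mean). The cause was not tested. Single members kept their direction and side of the threshold in 42 of the comparisons of votes with 3 losing it, in 18 of mother with 27 losing it, in 108 of own genotype with 60 losing it and in 57 of somite number with 62 losing it. Alternatives by library number, and those that take lanes out within 1 mother's genotype or test own genotype by mother, flowcell or litter, were chosen after seeing the data. No paired analysis was possible because replicate numbers in these crosses do not link embryos of different groups, and littermates were compared only for own genotype.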
